A study of Mus musculus with 12 samples.

Results

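Toll-like receptor sensing genes are the receptors Tlr1 to Tlr7, the co-receptors Cd14 and Ly96, and the adaptor Myd88, and they were followed across the 2 cell populations of mouse liver and 2 treatments of this study. The members were every probe set of the array whose platform annotation gives 1 of these 10 symbols alone, which was 14 probe sets among 22626 in the table, for 10 genes among 12393. Affymetrix 3′ arrays gave the expression of a fraction called mesenchymal cells and of hepatocytes, the metabolic parenchymal cells, both isolated from livers of male C57BL/6N mice aged 12 weeks. There were 4 groups of 3 arrays: mesenchymal cells under phenobarbital or vehicle, and hepatocytes under phenobarbital or vehicle. Phenobarbital, a barbiturate known to induce drug metabolism in liver through the nuclear receptor CAR, was given at 50 mg/kg per day in drinking water for 14 days, and vehicle mice drank tap water. No mouse carried a transgene or deletion by the labels, and the labels do not say how many animals stood behind an array, so the spread behind each p-value is that of these samples and may be technical.

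Toll-like receptors recognise molecules of microbes and of damaged cells and start inflammatory signalling. In the liver, which receives bacterial products from the gut through the portal vein, Kupffer cells (the resident macrophages) and sinusoidal endothelial cells are known for this sensing. Tlr4 binds lipopolysaccharide together with its partner Ly96 (MD-2), to which Cd14 delivers it. Tlr2 pairs with Tlr1 or Tlr6 to sense bacterial lipopeptides, Tlr5 senses flagellin, and Tlr3 and Tlr7 sense double-stranded and single-stranded RNA inside endosomes. Myd88 carries the signal of these receptors except that of Tlr3, which uses the adaptor Ticam1.

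The promoters of Tlr1 and Tlr5 are shown because these receptors differed between the populations in opposite directions. Each is a RefSeq window of 250 bases before and 50 after a start site annotated for the gene in GRCm38.p6. That of Tlr1, the first of its 2 windows, lies at chr5:64933509-64933808 on the minus strand. That of Tlr5 lies at chr1:182954538-182954837 on the plus strand, and capitals mark a match to a searched motif.
Tlr1: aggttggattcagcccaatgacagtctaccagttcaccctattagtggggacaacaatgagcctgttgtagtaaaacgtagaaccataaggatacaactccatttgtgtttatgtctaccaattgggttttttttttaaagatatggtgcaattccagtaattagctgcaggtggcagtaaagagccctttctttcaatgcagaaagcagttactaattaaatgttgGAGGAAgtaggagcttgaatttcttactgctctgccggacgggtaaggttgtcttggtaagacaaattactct
Tlr5: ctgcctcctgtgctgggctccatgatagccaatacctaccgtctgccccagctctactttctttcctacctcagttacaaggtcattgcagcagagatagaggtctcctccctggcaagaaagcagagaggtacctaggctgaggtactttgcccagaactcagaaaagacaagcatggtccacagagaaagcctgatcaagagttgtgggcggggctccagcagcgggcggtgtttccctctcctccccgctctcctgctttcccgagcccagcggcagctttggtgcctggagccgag
Both strands were searched for the letters GAGGAA (the core bound by the myeloid factor PU.1), TGANTCA (AP-1) and CAAAGTC (a core of HNF4 sites), which do not overlap in these windows. The search covered 6 members with 8 RefSeq windows in all, of Tlr1, Tlr2, Tlr3, Tlr5, Tlr6 and Myd88. No promoters of Tlr4, Tlr7 and Ly96 were at hand. Cd14, the member that differed most between the populations, was left out of the search, so nothing is said here of its promoter. The window of Tlr1 shown held 1 GAGGAA, starting 23 bases before the start site of that window. This window overlaps the gene's span of 64924680 to 64933600. None of the other 7 windows, among them the second window of Tlr1, held any of the 3 motifs. Of 32851 mouse promoters of this length, 28.3% held GAGGAA, 7.81% TGANTCA and 4.44% CAAAGTC. A match describes letters, not a bound site.

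Values are expression on the log2 scale after RMA, so a difference of 1 is a 2-fold change, and levels of different probe sets cannot be set against each other. Array medians lay between 7.19 and 7.44. Within a group, the correlation r of 2 arrays over all probe sets was 0.989 to 0.996, and across populations it was 0.731 to 0.783. The mesenchymal label was checked against markers. All 12 Kupffer cell and macrophage markers and all 14 sinusoidal endothelial markers measured were higher in mesenchymal cells than in hepatocytes of vehicle mice, by medians of 7.68 and 6.31. Stellate cell and fibroblast genes had a median difference of 2.73, and 7 of 8 tested passed as higher. Des, a stellate cell filament, did not pass, with means of 7.45 in mesenchymal cells and 7.29 in hepatocytes. The fibroblast collagen Col1a1 and the stellate cell receptor Pdgfrb averaged 4.90 and 5.84 in vehicle mesenchymal arrays, below the 40th percentile of those arrays, so the fraction is called here by its label without meaning a pure mesenchymal population. All 14 hepatocyte markers were lower, by a median of −4.48. Their mean level ran from 8.71 to 10.71 on the mesenchymal arrays and from 13.50 to 13.75 on the hepatocyte arrays. In such bulk samples, fewer cells of a type and less RNA per cell cannot be told apart.

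The first question was where in the liver these genes are expressed, answered by the difference between mesenchymal cells and hepatocytes. The lipopolysaccharide receptor complex, the receptors Tlr1, Tlr2, Tlr3, Tlr6 and Tlr7 and the adaptor were higher in mesenchymal cells in both phenobarbital and vehicle mice. Tlr5 alone among the 10 genes was lower there. In vehicle mice the differences ran from −0.95 for Tlr5 to 5.72 for Cd14, with a median of 2.95 over the 10 genes, while the median of all 9031 genes tested was 0.02. Genes were tested where at least 3 arrays of the fit had them over their 40th percentile, and a gene passed at a limma adjusted p under 0.05 (Benjamini-Hochberg over all genes tested). By this rule 9 members were higher and 1 was lower, where 42.0% of all tested genes were higher and 40.7% lower. With arrays centred on their medians the share of calls that were higher was 42.6%, against 50.8% uncentred. Most genes differ between these populations (82.7% passed, and 84.4% had groups that did not overlap), so passing the test does not set these genes apart. In phenobarbital mice, too, 9 members were higher and 1 lower, against 42.2% and 40.9% of all tested genes (83.1% in either direction, and 85.7% without overlap). Tlr1, Tlr4, Tlr6, Tlr7 and Cd14 passed the filter through mesenchymal arrays alone and Tlr5 through hepatocyte arrays alone.

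**Figure D1:**
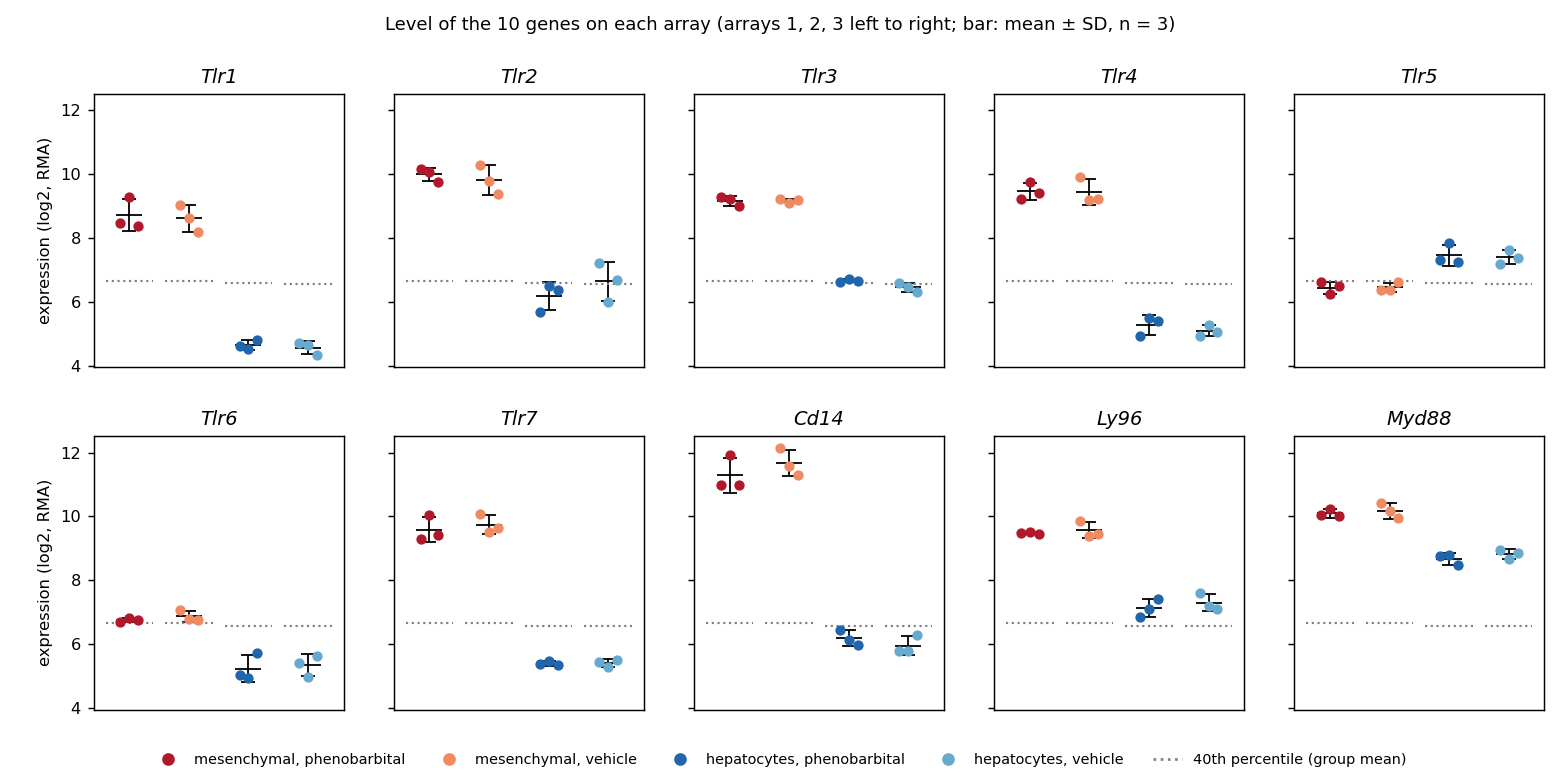
Expression of the 10 genes on each of the 12 arrays, 1 panel per gene, with log2 RMA level on the vertical axis, points for single arrays, bars for mean ± SD (n = 3) and dotted lines for the 40th percentile of the arrays of each group. The mesenchymal arrays lie above the hepatocyte arrays without overlap in 9 panels and below them in the panel of Tlr5.

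Among the lipopolysaccharide sensors, Cd14, the membrane and soluble protein that hands lipopolysaccharide to the receptor, differed most. In phenobarbital mice Cd14 was at 10.97, 11.91 and 10.97 in mesenchymal cells, against 6.45, 6.14 and 5.99 in hepatocytes. In vehicle mice Cd14 was at 12.13, 11.58 and 11.30 in mesenchymal cells, against 5.78, 5.78 and 6.30 in hepatocytes. Every mesenchymal array lay above every hepatocyte array, and all hepatocyte values were below the 40th percentile of their array, taken here as near background. The difference was 5.09 (SE 0.28, limma adjusted p = 1.03e-08) in phenobarbital mice and 5.72 (SE 0.28, limma adjusted p = 3.84e-09) in vehicle mice, which is 52.8-fold there. The size of a difference from a level near background is uncertain beyond its SE.

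Tlr4, the signalling receptor of the complex, was likewise high in mesenchymal cells and near background in hepatocytes. In phenobarbital mice Tlr4 was at 9.23, 9.75 and 9.41 in mesenchymal cells, against 4.92, 5.50 and 5.39 in hepatocytes. In vehicle mice Tlr4 was at 9.90, 9.20 and 9.21 in mesenchymal cells, against 4.94, 5.28 and 5.05 in hepatocytes. The groups were far apart, with a difference of 4.19 (SE 0.22, limma adjusted p = 6.47e-09) in phenobarbital mice and 4.34 (SE 0.22, limma adjusted p = 4.72e-09) in vehicle mice. A second probe set of Tlr4 gave 4.85 in phenobarbital and 5.04 in vehicle mice.

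Ly96, which binds the lipid part of lipopolysaccharide beside Tlr4, differed by less than Cd14 and Tlr4 and was above the 40th percentile on all 6 hepatocyte arrays. In phenobarbital mice Ly96 was at 9.49, 9.50 and 9.44 in mesenchymal cells, against 6.87, 7.11 and 7.42 in hepatocytes. In vehicle mice Ly96 was at 9.87, 9.39 and 9.46 in mesenchymal cells, against 7.60, 7.21 and 7.10 in hepatocytes. The populations did not overlap, and the difference was 2.35 (SE 0.17, limma adjusted p = 1.20e-07) in phenobarbital mice and 2.27 (SE 0.17, limma adjusted p = 1.59e-07) in vehicle mice.

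The lipopeptide receptors Tlr1, Tlr2 and Tlr6 were all higher in mesenchymal cells. Tlr1 and Tlr6 are close paralogs that neighbour each other on chromosome 5, at 64924680 to 64933600 and at 64953092 to 64970942 in GRCm38.p6, and a probe set of one could take signal from the other. In phenobarbital mice Tlr1 was at 8.48, 9.28 and 8.38 in mesenchymal cells, against 4.63, 4.52 and 4.80 in hepatocytes. In vehicle mice Tlr1 was at 9.03, 8.63 and 8.18 in mesenchymal cells, against 4.72, 4.66 and 4.33 in hepatocytes. Hepatocyte values of Tlr1 were all below the 40th percentile, and the difference was 4.06 (SE 0.25, limma adjusted p = 2.90e-08) in phenobarbital mice and 4.04 (SE 0.25, limma adjusted p = 2.97e-08) in vehicle mice. In phenobarbital mice Tlr6 was at 6.68, 6.83 and 6.76 in mesenchymal cells, against 5.04, 4.94 and 5.72 in hepatocytes. In vehicle mice Tlr6 was at 7.07, 6.79 and 6.75 in mesenchymal cells, against 5.40, 4.96 and 5.64 in hepatocytes. The mesenchymal values of Tlr6 lay just above the 40th percentile or, on 1 array of phenobarbital mice, below it. Its difference was 1.52 (SE 0.22, limma adjusted p = 4.06e-05) in phenobarbital mice and 1.53 (SE 0.22, limma adjusted p = 3.87e-05) in vehicle mice.

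Tlr2, the shared partner of Tlr1 and Tlr6, had the widest spread between hepatocyte arrays of the 10 genes. In phenobarbital mice Tlr2 was at 10.15, 10.07 and 9.76 in mesenchymal cells, against 5.67, 6.51 and 6.36 in hepatocytes. In vehicle mice Tlr2 was at 10.29, 9.80 and 9.37 in mesenchymal cells, against 7.23, 6.01 and 6.68 in hepatocytes. The populations did not overlap. Among hepatocytes only vehicle arrays 1 and 3 exceeded the 40th percentile. The difference was 3.81 (SE 0.32, limma adjusted p = 4.41e-07) in phenobarbital mice and 3.18 (SE 0.32, limma adjusted p = 2.22e-06) in vehicle mice.

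The RNA sensors Tlr7 and Tlr3 were both higher in mesenchymal cells. In phenobarbital mice Tlr7 was at 9.29, 10.04 and 9.42 in mesenchymal cells, against 5.37, 5.47 and 5.34 in hepatocytes. In vehicle mice Tlr7 was at 10.08, 9.51 and 9.63 in mesenchymal cells, against 5.44, 5.28 and 5.52 in hepatocytes. Tlr7, a gene of chromosome X, was thus near background on every hepatocyte array, and its difference was 4.19 (SE 0.19, limma adjusted p = 2.37e-09) in phenobarbital mice and 4.33 (SE 0.19, limma adjusted p = 1.74e-09) in vehicle mice. The other 2 probe sets of Tlr7 gave 0.60 and 0.80 in phenobarbital mice and 0.99 and 1.21 in vehicle mice, and did not pass the filter, being above the 40th percentile on 1 array each. The size of the Tlr7 difference therefore rests on 1 probe set, while its direction was the same in 3.

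In phenobarbital mice Tlr3 was at 9.28, 9.21 and 8.999 in mesenchymal cells, against 6.61, 6.72 and 6.67 in hepatocytes. In vehicle mice Tlr3 was at 9.22, 9.11 and 9.19 in mesenchymal cells, against 6.60, 6.47 and 6.31 in hepatocytes. The arrays of each group lay close together and the populations far apart, with a difference of 2.50 (SE 0.10, limma adjusted p = 7.80e-10) in phenobarbital mice and 2.71 (SE 0.10, limma adjusted p = 4.18e-10) in vehicle mice. The hepatocyte values were at the 40th percentile, above it on 3 arrays of phenobarbital mice and 1 array of vehicle mice. A second probe set of Tlr3 gave 2.41 in phenobarbital and 2.42 in vehicle mice.

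Myd88, the adaptor that the receptors share, was above the 40th percentile on all 12 arrays. In phenobarbital mice Myd88 was at 10.03, 10.24 and 10.01 in mesenchymal cells, against 8.75, 8.79 and 8.47 in hepatocytes. In vehicle mice Myd88 was at 10.43, 10.17 and 9.94 in mesenchymal cells, against 8.95, 8.65 and 8.85 in hepatocytes. The populations did not overlap, and the difference was 1.43 (SE 0.14, limma adjusted p = 1.38e-06) in phenobarbital mice and 1.36 (SE 0.14, limma adjusted p = 2.18e-06) in vehicle mice, which is 2.69-fold under phenobarbital and 2.56-fold under vehicle.

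Tlr5 ran the other way. In phenobarbital mice Tlr5 was at 6.61, 6.24 and 6.48 in mesenchymal cells, against 7.30, 7.83 and 7.25 in hepatocytes. In vehicle mice Tlr5 was at 6.38, 6.38 and 6.61 in mesenchymal cells, against 7.19, 7.63 and 7.39 in hepatocytes. Each hepatocyte array lay above each mesenchymal array, all 6 hepatocyte values exceeded the 40th percentile and all 6 mesenchymal values were below it. The difference was −1.01 (SE 0.17, limma adjusted p = 0.000171) in phenobarbital mice and −0.95 (SE 0.17, limma adjusted p = 0.000293) in vehicle mice. With arrays centred on their medians, which lowered the difference of the median gene by 0.22 in vehicle mice, that of Tlr5 was −1.16 (limma adjusted p = 5.95e-05). Tlr5 had 1 probe set, and its mesenchymal level was near background, so the size of its difference is uncertain beyond its SE. The mesenchymal fraction held hepatocyte transcripts, as given above, and their part in the mesenchymal Tlr5 level was not tested.

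**Figure D2:**
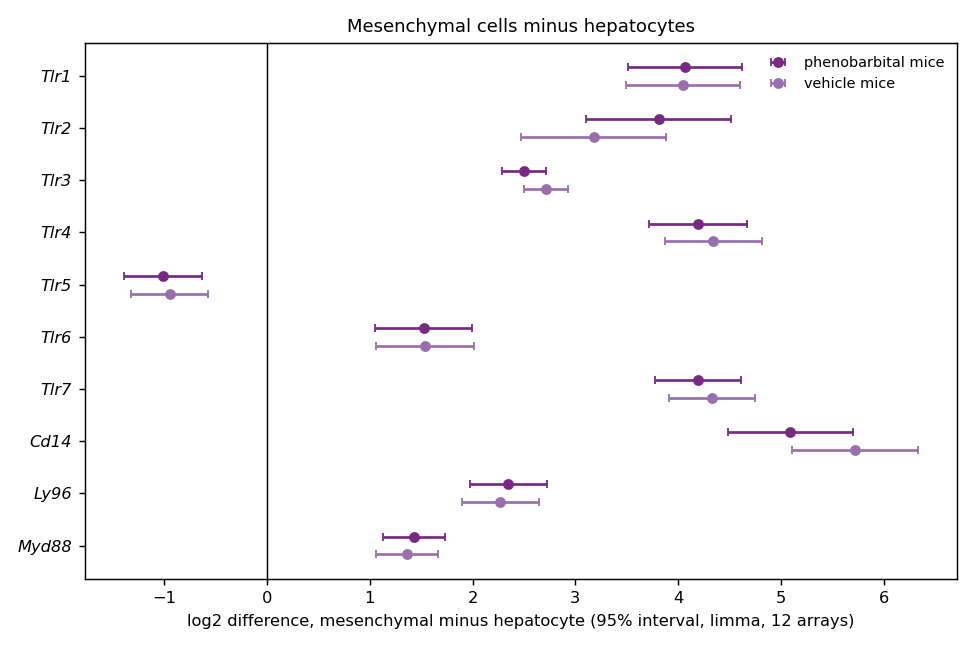
Log2 difference between mesenchymal cells and hepatocytes for the 10 genes, with 95% intervals from limma on 12 arrays, in phenobarbital mice (upper point of each pair) and vehicle mice (lower point). Cd14 lies farthest to the right, at 5.09 and 5.72, and Tlr5 is the single gene left of 0.

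Some markers of other liver cells were above the 40th percentile on the hepatocyte arrays, and the genes were set beside such markers on the linear scale. In vehicle mice the hepatocyte level of Kupffer cell and macrophage markers was between 0.229% and 7.38% of the mesenchymal level, with a median of 0.486% over 12 genes. For the 14 sinusoidal endothelial markers it was between 0.676% and 5.56%, with a median of 1.26%. Cd14 stood at 1.90%, Tlr4 at 4.92%, Tlr7 at 4.99% and Tlr1 at 6.06%. Cd14 lay within the range of both marker lists, above 10 of the 12 macrophage markers. The top of the macrophage range was Mpeg1 alone, at 7.38%, and Tlr4, Tlr7 and Tlr1 lay above the other 11, the highest of which was Marco at 3.10%. Tlr1 also lay above each endothelial marker, the highest being Eng at 5.56%. Tlr2 stood at 11.0%, Tlr3 at 15.3%, Ly96 at 20.7%, Tlr6 at 34.5% and Myd88 at 39.0%, above each of the 26 markers, and Tlr5 at 193%. Markers of other cell types reached higher shares. They ran from 2.53% to 128% for stellate cells and fibroblasts and from 0.305% to 65.9% for dendritic cells. For T and NK cells they ran from 8.13% to 91.6%, and for monocytes and neutrophils from 10.7% to 145%. The shares of Tlr2, Tlr3, Ly96, Tlr6 and Myd88 lay within each of these ranges. Tlr1, Tlr4, Tlr6, Tlr7 and Cd14 were below the 40th percentile on every hepatocyte array, so their shares rest on levels near background. Many marker shares do too. On single vehicle hepatocyte arrays 5 to 6 of the 12 macrophage markers and 7 to 9 of the 14 endothelial markers were below the 40th percentile. Such a share depends largely on how high the mesenchymal level is. The order of genes and markers therefore does not show whether, or how much, signal of other cells a gene carried. Of the genes above all 26 macrophage and endothelial markers, only Ly96, Myd88 and Tlr5 were above the 40th percentile on every hepatocyte array of vehicle mice. Whether, and how much, other cells contributed to hepatocyte levels was not tested.

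**Figure D3:**
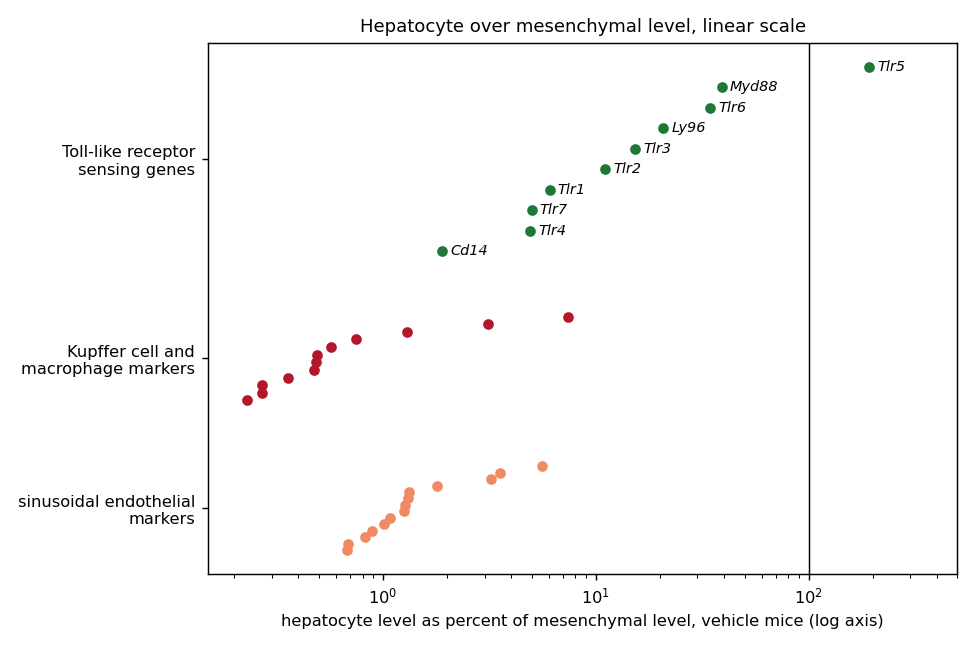
Hepatocyte level as a percentage of the mesenchymal level in vehicle mice (linear RMA values, log axis), 1 point per gene, for the 10 Toll-like receptor sensing genes, 12 Kupffer cell and macrophage markers and 14 sinusoidal endothelial markers. Cd14 lies lowest of the 10 genes at 1.90%, Myd88 reaches 39.0% and Tlr5 exceeds 100% (vertical line).

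The mesenchymal arrays of 1 group differed among themselves, and so did the marker lists of several cell types. Of the vehicle arrays, array 1 had the highest value for 9 of 10 genes, where the same array was highest for 41.6% of the 8003 genes tested in mesenchymal cells. It was also highest for 9 of 12 Kupffer cell and macrophage markers and for 8 of 8 markers of monocytes and neutrophils. On vehicle array 1, however, 4 of these 8 were below the 40th percentile. Of the phenobarbital arrays, array 2 had the highest value for 7 of 10 genes, against 34.8% of all genes tested, and was highest for 12 of 12 macrophage markers and 7 of 8 monocyte and neutrophil markers. On phenobarbital array 2, 1 of these 8 was below the 40th percentile. The mean level of the monocyte and neutrophil markers was 8.58 on that array and 6.45 and 6.81 on the other phenobarbital arrays, against 7.53 on vehicle array 1 and 6.90 and 6.53 on the other vehicle arrays. The macrophage markers varied less, from 13.56 to 13.98 in phenobarbital and from 13.67 to 13.84 in vehicle mesenchymal arrays. Other lists moved on the same arrays. Phenobarbital array 2 was the lowest of its group for T and NK cell markers (7.54, against 8.02 and 8.06 on the other arrays) and for dendritic cell markers (9.06, against 9.72 and 9.44). Vehicle array 1 was the highest of its group for T and NK cell markers (8.57, against 7.67 and 7.82), dendritic cell markers (9.68, against 9.37 and 9.44) and B cell markers (6.63, against 6.39 and 6.22). It was the lowest for hepatocyte markers (8.71, against 9.87 and 9.76), sinusoidal endothelial markers (12.21, against 12.61 and 12.77) and stellate cell and fibroblast markers (7.67, against 8.10 and 8.11). The part of any of these cells in the spread of the genes was not tested.

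**Figure D4:**
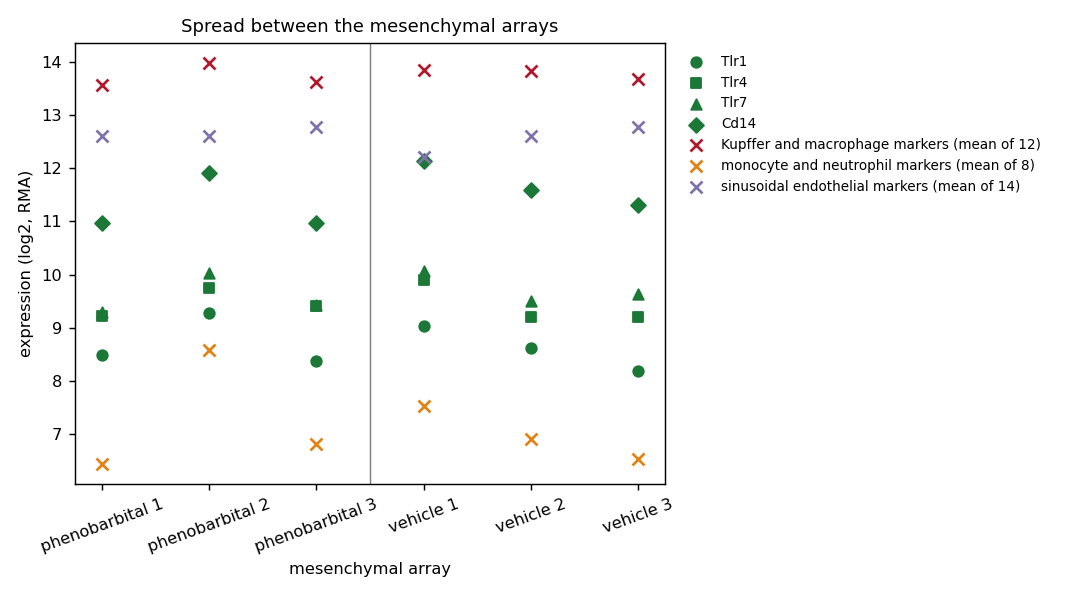
Log2 RMA level on the 6 mesenchymal arrays of Tlr1, Tlr4, Tlr7 and Cd14 (green symbols) and the mean level of 3 marker lists (crosses), with phenobarbital arrays left and vehicle arrays right of the line. Phenobarbital array 2 and vehicle array 1 are the highest of their group in each of the 4 genes and in the monocyte and neutrophil markers (8.58 and 7.53). Over all 10 genes, not all plotted, phenobarbital array 2 was highest for 7 and vehicle array 1 for 9.

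The second question was whether phenobarbital changed these genes in either population. No member passed the test. In hepatocytes 4 members were above the filter and none of them passed, where 0.0493% of the 8117 genes tested did. Of those 8117 genes, 680 had an unadjusted limma p under 0.05, where chance alone would give about 406. The members tested were Tlr3, at 6.66 ± 0.05 in phenobarbital and 6.46 ± 0.15 in vehicle hepatocytes (SD, n = 3), and Tlr5, Ly96 and Myd88. Tlr5 was at 7.46 ± 0.32 in phenobarbital and 7.40 ± 0.22 in vehicle hepatocytes. Ly96 was at 7.13 ± 0.28 in phenobarbital and 7.30 ± 0.26 in vehicle hepatocytes. These groups overlapped, as did those of Myd88, at 8.67 ± 0.18 in phenobarbital and 8.82 ± 0.15 in vehicle hepatocytes. Tlr3 was the 1 member whose groups did not overlap, where 15.1% of all genes tested did not. Its difference was 0.20 (95% interval −0.08 to 0.48, limma adjusted p = 0.680), and its second probe set gave 0.04 with overlapping groups. The interval of Tlr5 ran from −0.37 to 0.48, that of Ly96 from −0.60 to 0.25 and that of Myd88 from −0.43 to 0.13. The other 6 members lay too low for the test in hepatocytes, with differences from −0.46 for Tlr2 to 0.24 for Cd14. Tested without a filter, they had limma adjusted p between 0.752 and 0.980.

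In mesenchymal cells 9 members were tested and none passed, as no gene did among 8003 tested (0% by limma). Of those 8003 genes, 232 had an unadjusted limma p under 0.05, where chance alone would give about 400. The groups overlapped in each of the 9 members, while 7.70% of all genes tested did not overlap. Cd14 had the widest difference, with 11.29 ± 0.54 in phenobarbital and 11.67 ± 0.42 in vehicle cells (SD, n = 3), or −0.39 (95% interval −1.14 to 0.37, limma adjusted p = 0.998). It was −0.16 without vehicle array 1 and −0.70 without phenobarbital array 2, the arrays on which several marker lists stood apart from their group, as given above. Tlr2 had 9.99 ± 0.21 in phenobarbital and 9.82 ± 0.46 in vehicle cells, a difference of 0.17 (95% interval −0.40 to 0.74). Tlr4 differed by 0.03 (−0.51 to 0.57), Tlr1 by 0.10 (−0.62 to 0.82) and Tlr7 by −0.15 (−0.71 to 0.40). The narrowest interval was that of Tlr3, −0.23 to 0.21 around −0.01, followed by Tlr6, Ly96 and Myd88, which lay between −0.42 and 0.25. Tlr5, below the filter in these cells, differed by −0.01. A p that misses the threshold does not show that the groups are alike.

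**Figure D5:**
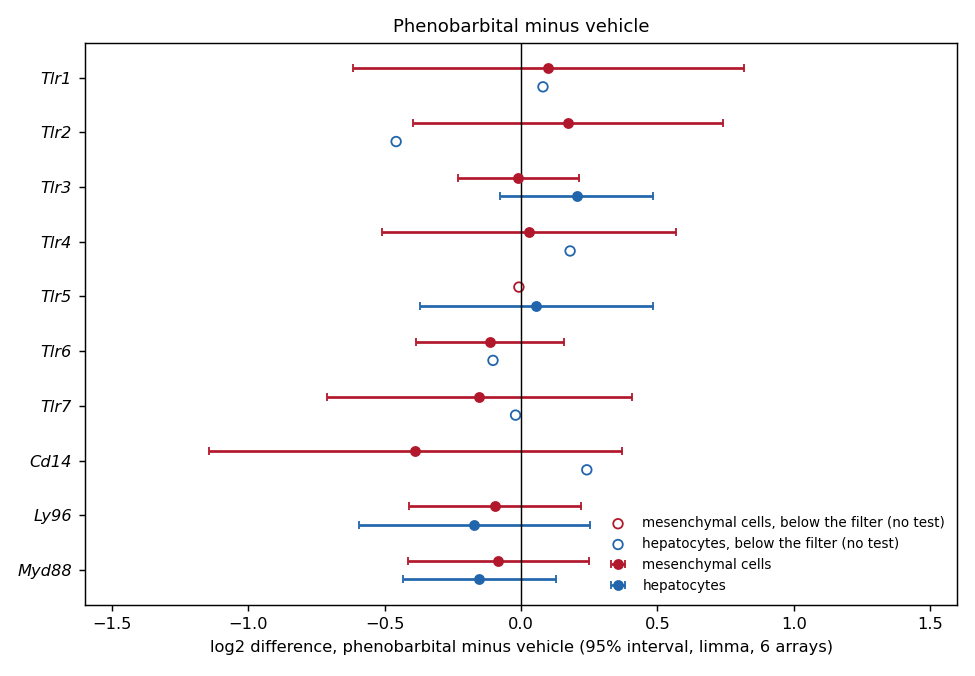
Log2 difference between phenobarbital and vehicle mice for the 10 genes in mesenchymal cells (red, upper) and hepatocytes (blue, lower), with 95% intervals from limma on 6 arrays. Open circles are genes below the filter, with no test. Each interval includes 0, and that of Cd14 in mesenchymal cells, −1.14 to 0.37, is the widest.

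The effect of phenobarbital in hepatocytes minus that in mesenchymal cells was tested on all 12 arrays, and no member passed, nor did any of 9031 genes (0%). Of those 9031 genes, 492 had an unadjusted limma p under 0.05, where chance alone would give about 452. Tlr2 had the lowest value, −0.63 (95% interval −1.63 to 0.37), and Cd14 the highest, 0.63 (−0.24 to 1.49), with limma adjusted p of 0.930 each. With 1 array left out, Tlr2 ran from −0.95 (without vehicle hepatocyte array 2) to −0.34 (without vehicle hepatocyte array 1), and Cd14 from 0.40 (without vehicle mesenchymal array 1) to 0.94 (without phenobarbital mesenchymal array 2).

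Other genes of Toll-like receptor signalling were taken from lists of 60 genes, of which 46 were measured and 37 tested between the populations. In phenobarbital mice 24 of these were higher and 3 lower in mesenchymal cells, with a median difference of 0.48, and in vehicle mice 26 were higher and 4 lower, with a median of 0.74. In all, 73.0% passed in phenobarbital mice and 81.1% in vehicle mice, against 83.1% and 82.7% of all genes tested, so passing does not set these lists apart. Of the further receptors, Tlr8 (1.33, SE 0.25) and Cd180 (2.57, SE 0.24), a Toll-like molecule of B cells and macrophages, were higher in vehicle mice. Tlr9 was below the filter and not tested. Like Tlr5, it read lower in mesenchymal cells, by −0.53 in vehicle mice without overlap and by −0.36 in phenobarbital mice with overlap. Of 6 cofactors tested, 4 were higher, 1 was lower and 1 did not pass. Ly86, the partner of Cd180, was higher by 7.25 (SE 0.16, limma adjusted p = 1.26e-11). Its hepatocyte mean of 5.44 was near background, so the size is uncertain beyond its SE. The other cofactors that were higher included the lipid receptor Cd36 (5.02, SE 0.31) and Unc93b1 (3.34, SE 0.12), which brings receptors such as Tlr3 and Tlr7 to endosomes. Lbp, a plasma protein made by hepatocytes that carries lipopolysaccharide to Cd14, was lower in mesenchymal cells of vehicle mice (−0.98, SE 0.20, limma adjusted p = 0.000621). In phenobarbital mice the difference of Lbp was −0.40 (SE 0.20, limma adjusted p = 0.0738), and the difference between the treatments did not pass (limma adjusted p = 0.899).

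Of 11 tested adaptors, kinases and ubiquitin ligases, 7 were higher and 2 lower in mesenchymal cells of vehicle mice, with a median of 0.55. The kinase Tbk1 had 1.32 (SE 0.08) and the ubiquitin ligase Peli1 1.24 (SE 0.08). Tirap, the adaptor that brings Myd88 to Tlr2 and Tlr4, was lower (−0.85, SE 0.14, limma adjusted p = 0.000191), as was Ikbkg, the regulatory subunit of the IκB kinase (−1.09, SE 0.09, limma adjusted p = 3.75e-07). Among 5 inhibitors 3 were higher, such as Nfkbia (1.96, SE 0.11), and Sigirr, an inhibitory receptor, was lower (−0.82, SE 0.12). Of 8 transcription factors 6 were higher, with Irf7 at 2.77 (SE 0.18), and none was lower. Of 5 tested target cytokines 4 were higher: Il1b (3.89, SE 0.43), Cxcl10 (3.23, SE 0.29), Ccl3 (3.09, SE 0.62) and Ccl4 (1.02, SE 0.30). Cxcl10 and Ccl3 were below the 40th percentile on the vehicle hepatocyte arrays, so the sizes of their differences are uncertain beyond their SE. In phenobarbital mice 3 of the 5 were higher, Ccl3 by 1.93 (SE 0.62), while Ccl4 did not pass (0.44, limma adjusted p = 0.188). Tnf passed in neither (−0.22 in phenobarbital and 0.13 in vehicle mice, SE 0.18).

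Phenobarbital changed none of the pathway genes by this test, among 32 tested in hepatocytes and 36 in mesenchymal cells, with median differences of 0.0043 and −0.06. The lowest p in hepatocytes were those of Fos (−0.94, SE 0.24, limma adjusted p = 0.433) and Lbp (−0.65, SE 0.19, limma adjusted p = 0.465). In mesenchymal cells they were those of Cxcl10 (0.79, SE 0.31) and Fos (−0.87, SE 0.39), both with a limma adjusted p of 0.998.

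Genes with the most similar profiles over the 12 arrays were sought among 9021 genes, by the root mean square difference of log2 values centred on each gene's mean. Nearest to Cd14 was P2ry12 (0.18), to Tlr4 Lst1 (0.16), to Tlr7 Tm6sf1 (0.17) and to Tlr1 Ifi30 (0.19). Cd300c2 was among the 3 nearest genes of both Tlr4 (0.20) and Tlr7 (0.17). The nearest gene was Rbl1 (0.27) for Tlr2, Sdcbp (0.11) for Tlr3, Nup98 (0.13) for Tlr6, Nck1 (0.14) for Ly96 and Stard3nl (0.07) for Myd88. Tlr5 was nearest to Atrn (0.11), which averaged 6.44 and 6.47 in mesenchymal cells of phenobarbital and vehicle mice and 7.42 and 7.34 in their hepatocytes. All these profiles share the step between the populations, and the distances are a description.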

How the data were processed

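RNA of each sample was hybridised to 1 array after amplification, per the labels' protocols. The deposited log2 values were made by the authors with RMA, per the submitters' processing notes. RMA usually brings arrays to a common distribution, but array medians here were 7.40 to 7.44 in mesenchymal cells and 7.19 to 7.21 in hepatocytes. Not given in the sources used here are its version, batches, and whether the populations were normalized together.

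Names came from the platform annotation (20380 probe sets with 1 symbol, 691 with several, 1555 with none). The probe set of highest mean level represented its gene. Ticam1 and other genes with no such probe set were not analysed here. Linear models were fitted with limma 3.58.1 (R 4.3.3; lmFit, eBayes with an intensity trend) on all genes above the 40th percentile on at least 3 arrays of the fit. Phenobarbital effects used the 6 arrays of a population, and other comparisons all 12. The fits were tested on simulated data. Every probe set of the members was named. Of each pathway list, up to 3 genes per direction with the widest difference that passed without overlap could be named or, where none passed, the 2 of smallest p over the lists, besides receptors, cofactors and adaptors by role. Marco, Mpeg1, Eng, Ccl4, Tnf, Ifih1 and Nlrp3 were named after their values were seen, as were the marker genes Col1a1, Pdgfrb and Des. The members, lists and motifs were chosen with earlier results of these data known. Precision is limited by having 3 arrays a group.

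Replicate numbers came from the labels. Deviations from group means were correlated between mesenchymal cells and hepatocytes with the same number. In vehicle mice r was 0.226, 0.213 and 0.178. In phenobarbital mice r was 0.0718, −0.0616 and 0.0144. The r values of a treatment are not independent, and whether samples of the same number came from the same mice was not tested. A replicate block was tried as an alternative. Alternatives also changed the filter, scaling, probe set rule, variance model and arrays used.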

Additional observations from a re-analysis of the deposited data

How the results depend on the processing

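Between the populations each of the 10 genes kept its direction and passed in 150 of 150 fits of 1 gene under 1 alternative in vehicle mice. The same held in 150 of 150 in phenobarbital mice, with limma adjusted p no higher than 0.00251 in either. These fits reuse the same arrays and are not independent of each other. Of all genes tested, 82.7% and 83.1% passed the main fits. Several members entered the filtered fits through 1 population alone, as given above. For phenobarbital no member passed under any alternative run, in either population or in the difference of effects (lowest adjusted p 0.565, 0.933 and 0.809). Centring arrays on their medians moved the median difference between populations by −0.22 in vehicle and −0.23 in phenobarbital mice. With the replicate block, 7445 genes differed between the populations in vehicle mice, against 7470 without it (7336 shared), and the 10 members passed in both. The block changed no call of a member. For phenobarbital in hepatocytes it gave 4 genes, of which 2 were shared with the 4 of the unblocked fit.

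Over all genes, phenobarbital in hepatocytes called 4, and 1 with all 12 arrays in 1 fit. Leaving out 1 array at a time gave 1 to 5. The difference of effects called 0, and 0 to 1 with 1 array left out. Small phenobarbital differences changed sign. In mesenchymal cells the mean of the probe sets gave 0.0094 for Tlr3 and −0.0035 for Tlr4. With 1 array left out, the mesenchymal differences ran from −0.18 to 0.31 for Tlr1, −0.053 to 0.41 for Tlr2, −0.069 to 0.072 for Tlr3, −0.11 to 0.26 for Tlr4, −0.38 to 0.016 for Tlr7, −0.19 to 0.052 for Ly96 and −0.20 to 0.041 for Myd88. In hepatocytes that of Tlr5 ran from −0.13 to 0.17. Differences of members below the filter changed sign too. In hepatocytes they ran from −0.037 to 0.15 for Tlr1, −0.35 to 0.051 for Tlr6 and −0.087 to 0.031 for Tlr7. In mesenchymal cells that of Tlr5 ran from −0.093 to 0.094. The difference of effects ran from −0.23 to 0.26 for Tlr1, −0.081 to 0.33 for Tlr4, −0.12 to 0.18 for Tlr5, −0.23 to 0.17 for Tlr6, −0.036 to 0.36 for Tlr7, −0.22 to 0.072 for Ly96 and −0.19 to 0.050 for Myd88. Leaving out both vehicle arrays 1 was added after seeing the data. It kept the 10 members past the test between populations. It gave −0.049 for Tlr5 in hepatocytes, 0.013 for Tlr3, 0.016 for Tlr7, 0.052 for Ly96 and 0.041 for Myd88 in mesenchymal cells, and differences of effects of −0.15 for Tlr4, −0.0012 for Tlr5, −0.056 for Tlr6 and −0.021 for Tlr7. The cause of these changes was not tested.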

Other observations

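Sensors outside the Toll-like receptor family differed between the populations as well. Of 6 tested, 5 were higher and 1 lower in mesenchymal cells in both phenobarbital and vehicle mice, where 83.1% and 82.7% of all genes tested passed in either direction. Clec7a, the receptor for fungal β-glucan known as dectin-1, was higher by 6.49 (SE 0.25, limma adjusted p = 6.46e-10) in vehicle mice. Casp1, the protease of inflammasomes, was higher by 5.18 (SE 0.14) and its adaptor Pycard by 4.72 (SE 0.26). The sizes of all 3 differences are uncertain beyond their SE, since the hepatocyte means were near background, at 5.90 for Clec7a, 5.15 for Casp1 and 5.61 for Pycard. Nlrp3, an inflammasome sensor, was higher by 1.75 (SE 0.17). Ifih1, a cytosolic RNA sensor, had a smaller difference of 0.22 (SE 0.09, limma adjusted p = 0.0477). Mavs, the mitochondrial adaptor of cytosolic RNA sensing, was lower, by −0.53 (SE 0.14, limma adjusted p = 0.00325). None of these passed for phenobarbital in either population where tested. The lowest adjusted p was that of Nlrp3 in hepatocytes (0.50, SE 0.15, limma adjusted p = 0.465).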
